A study of Leucoraja erinaceus with 4 samples.

Results

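Assembled genes that were abundant in the ampullary canals of the little skate, Leucoraja erinacea, and lower in each other sampled tissue numbered 170 of the 186064 in the assembly. They were chosen by their expression values: at least 1000 reads in the canal library, and a canal level at least 4 times that of each of the other 3 libraries. The level for this rule was the rounded expected count per 1000000 reads of the library total (CPM) plus 0.5. The rule sets no upper limit in the other libraries: 27 members had 1000 or more reads in receptor cells, 8 in skin and 8 in liver. The samples were 4 poly(A)-selected RNA libraries from 1 adult, with no treatment named in the labels: ampullary canals, ampullary receptor cells (the electroreceptor cells), body skin from an area without electroreceptors, and a 4 mg piece of liver. Each tissue gave 1 library, so no difference has a replicate check and no p-value was computed.

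Ampullary organs (ampullae of Lorenzini) sense weak electric fields in the water. A canal runs from a pore in the skin to a blind ampulla, where the receptor cells sit in a sensory epithelium. The canal is filled with a conductive, glycoprotein-rich gel, and its wall is an epithelium sealed by tight junctions that insulates the gel from the surrounding tissue. The assembly identifiers are not paired with gene names: 0 of 186064 matched the reference table of 23250 skate genes (RefSeq, assembly Leri_hhj_1). Members are therefore named by identifier, and no function is given to any of them. For the same reason the labelled tissues could not be checked against marker genes. In dissected tissue, fewer cells of a type and less RNA per cell cannot be told apart.

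The canal library held 12303108 assigned reads, and the others held 11071249 to 12240037. The members took 17.1% of the canal reads (exact binomial 95% interval 17.105 to 17.147, counting error only). They took 1.38% of the receptor-cell reads, 0.717% of the skin reads and 0.678% of the liver reads. The rule places canals above each other library, so this gap describes the members and tests nothing. It does not set the order among the other libraries. Among all 36326 assembled genes with at least 10 reads in 1 library, 3.06% stood at least 4-fold above each other library in canals, and 9.8% did so among the 1735 with 1000 or more canal reads, which are the 170 members. Taken 1 library at a time, the 4-fold rule passed 13.1% of these 1735 against receptor cells, 24.3% against skin and 38.5% against liver. Over all 36326, the corresponding shares were 4.6%, 8.88% and 13.5%. With library totals, receptor cells were thus the library that kept the most of these 1735 out of the set. These 4-fold shares per library were not computed with TMM factors. A different measure, the highest other library of the 1565 outside the set, depended on the scaling. It was receptor cells in 54.4%, skin in 37.9% and liver in 7.67% with library totals. With TMM factors it was receptor cells in 30.3%, skin in 36.5% and liver in 33.2% of the same 1565.

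A few members carried most of the canal reads of the set. The 3 with the most reads held 44.8% of them and the first 10 held 64.9%, and 5 members were enough for 50%. At the other end, 78 of the 170 had fewer than 2000 canal reads. Canal reads per member ran from 1005 to 388787, with a median of 2352.5. The median was 240 reads in receptor cells, 77.5 in skin and 34 in liver. Members made up 17.4% of the 161 assembled genes with 10000 or more canal reads and 9.02% of the 1574 with at least 1000 but fewer than 10000.

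Assembled gene c80805_g1 (mean length 2319.87 bases, 2 transcripts) had the most reads of the canal library, 388787, or 3.16% of all. It had 14193 reads in receptor cells, 158 in skin and 67 in liver. Its canal level was 27.3-fold that of receptor cells (exact 95% interval 26.8 to 27.7), 2343-fold that of skin (2005 to 2757) and 5222-fold that of liver (4112 to 6738). The 3 other libraries were thus spread over a wide range, with receptor cells far above skin and liver. The intervals do not cover the scaling. With 0.5 CPM added, its log2 difference from receptor cells was 4.77 with library totals. It was 5.31 with TMM factors, 5.41 with DESeq2 size factors and 4.72 with the deposited TPM.

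Assembled gene c185064_g1 (9510 bases) was second in the canal library, with 374886 reads. It had 29916 reads in receptor cells, 30909 in skin and 32690 in liver. Its canal level was 12.5-fold that of receptor cells (12.3 to 12.6), 11.6-fold that of skin (11.4 to 11.7) and 10.3-fold that of liver (10.2 to 10.4). With library totals the other 3 tissues thus lay close together for this member, unlike for c80805_g1. With TMM factors they did not: it had 1656 CPM in receptor cells, 2375 in skin and 4888 in liver, and the canal level was 6.17 times that of liver with 0.5 CPM added.

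**Figure D1:**
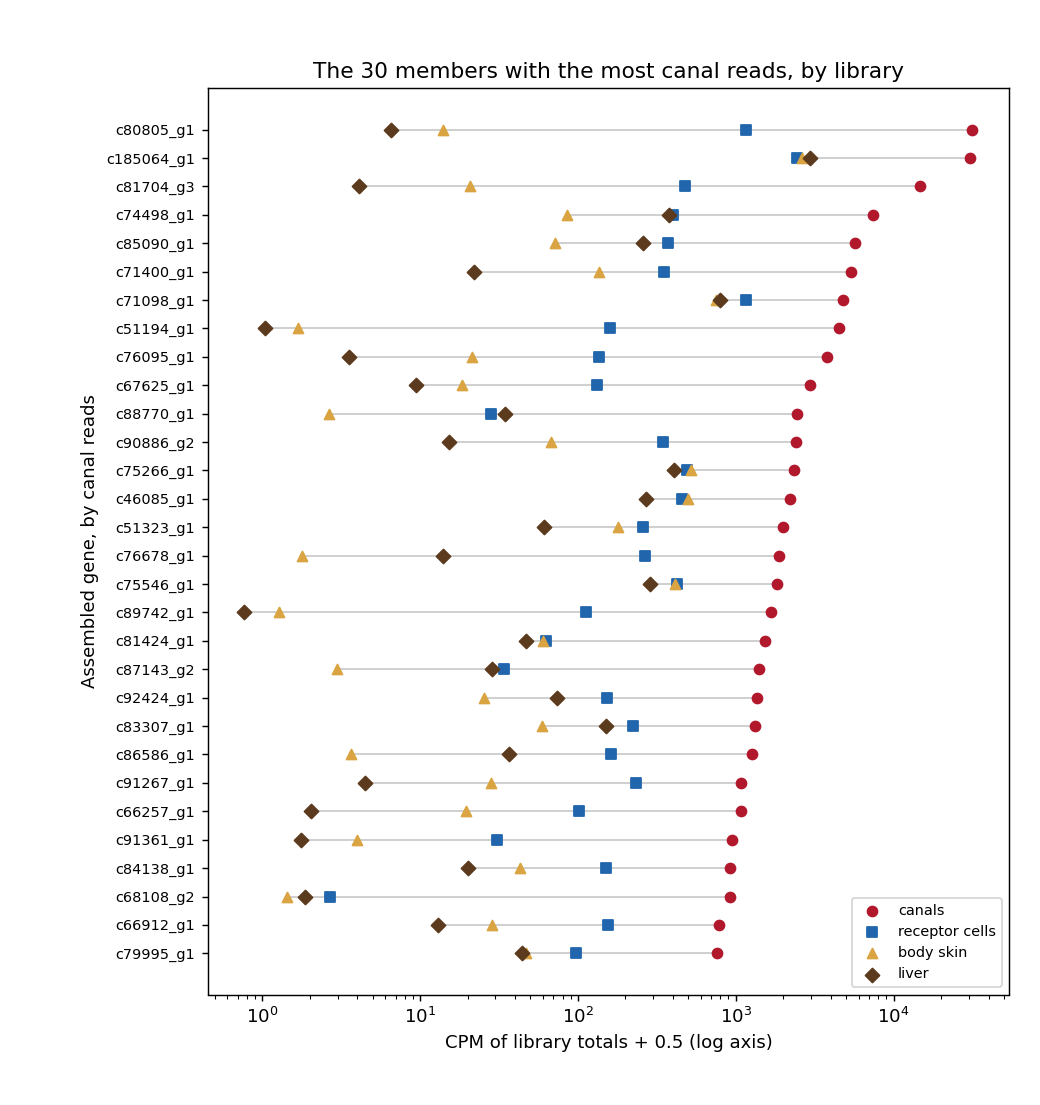
CPM of library totals plus 0.5 (log axis) of the 30 members with the most canal reads, 1 row per assembled gene and 1 point per library; each point is 1 library, so there are no error bars. Canals lie rightmost by the rule, and the other 3 libraries lie close together for c185064_g1 and c71098_g1 but far apart for c80805_g1 and c51194_g1.

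In a large group, the level in the receptor-cell library was well above that in the skin and liver libraries. Receptor cells stood at least 4-fold above both skin and liver in 56 of the 170 members (32.9%), against 136 of the 1565 other assembled genes with 1000 or more canal reads (8.69%). The groups by profile described here and below were defined after the values were seen, from the same values as the rule. Each of the 1565 others failed the 4-fold limit against some other library. Part of each contrast by profile between members and others can therefore follow from the selection. The 56 took 7.89% of the canal reads, 0.487% of the receptor-cell reads, 0.0353% of the skin reads and 0.019% of the liver reads. Their median was 30 reads in skin and 9.5 in liver, and their maximum was 780 in skin and 397 in liver. With TMM scaling the counts were 37 members (21.8%) and 87 others (5.56%).

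With library totals, the 5 of this group with the most canal reads lay within a narrow band of canal over receptor-cell level, 22.3-fold to 30.5-fold. Together they took 5.75% of the canal reads. As for c80805_g1, these folds depend on the scaling. Besides c80805_g1 they were c81704_g3, c51194_g1, c76095_g1 and c67625_g1. The cut at 5 was chosen after the values were seen, and the next of the group by canal reads, c90886_g2, was at 7.01-fold. Assembled gene c81704_g3 (2362 bases) had 179847 reads in canals, 5866 in receptor cells, 236 in skin and 40 in liver. Assembled gene c51194_g1 (1257 bases) had 55627, 1939, 14 and 6 reads in the same order. In canals it stood at 28.5-fold the level of receptor cells (27.3 to 29.9), 3784-fold that of skin (2255 to 6922) and 8343-fold that of liver (3833 to 22735). In both, the receptor-cell level was well above that of skin and liver, and only c51194_g1 had fewer than 20 reads in each of the latter.

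Most of the 56 were closer to receptor cells than these 5. Canal over receptor-cell level had a median of 7.28 in the group and ran from 4.1 to 79.3, with 30 members under 8-fold and 16 at 20-fold or more. Assembled gene c76678_g1 (2570 bases), with 23244 canal reads, had 3270 in receptor cells, 15 in skin and 149 in liver. Its canal level was only 7.07-fold that of receptor cells (6.82 to 7.34) but 1476-fold that of skin (895 to 2637). At the far end, c91116_g1 (2398 bases) had 8287 reads in canals, 104 in receptor cells, 2 in skin and 1 in liver, and its canal level was 79.3-fold that of receptor cells (65.3 to 97.1). The longest member, c94867_g1 (11370 bases), also belongs here, with 4704 canal reads, 864 in receptor cells, 78 in skin and 2 in liver.

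**Figure D2:**
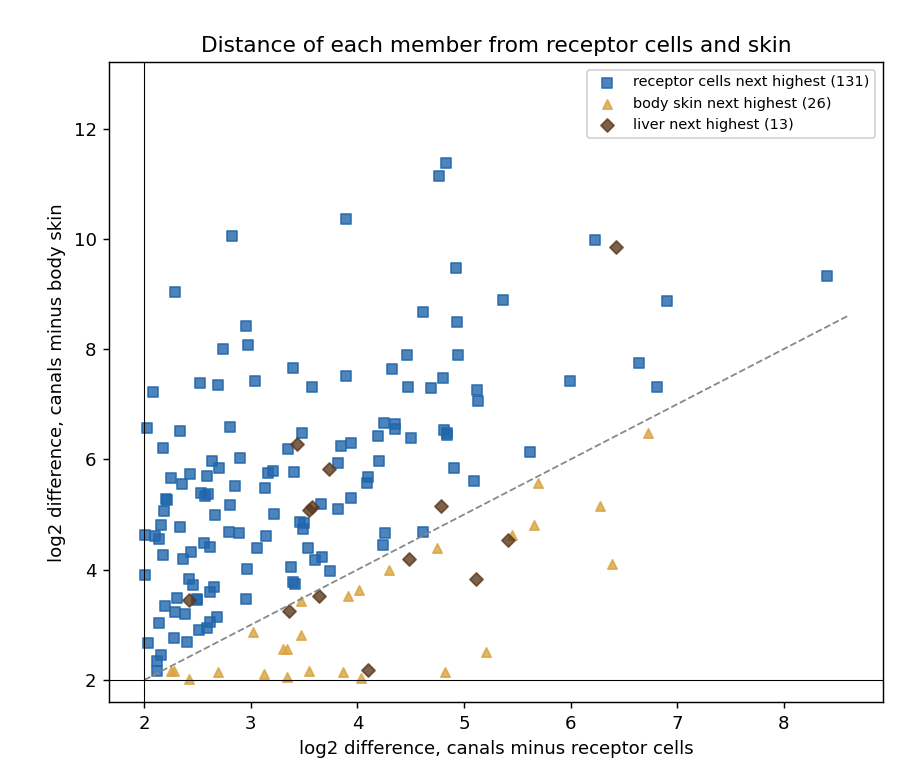
Each point is 1 of the 170 members, placed by its log2 difference between canals and receptor cells (x axis) and between canals and body skin (y axis), both on the log2(CPM + 0.5) scale; colour and shape give the highest of the other 3 libraries. The solid lines mark the 4-fold limit of the rule and the dashed line equal distance; 131 members have receptor cells next highest, and points reach higher above skin than they reach to the right of receptor cells.

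Over all members, the distance was smallest to receptor cells. The median log2 difference was 3.40 from receptor cells, 5.10 from skin and 5.92 from liver, which are 10.5-fold, 34.3-fold and 60.7-fold. With TMM factors the medians were 3.94, 5.21 and 5.27, so skin and liver were then about equally far, while receptor cells stayed nearest also with DESeq2 size factors (4.03) and the deposited TPM (3.18). Over the 36326 assembled genes with 10 reads in a library, the medians were -0.50, -0.01 and 0.35. A level at least 64-fold that of the other library was found for 9 members against receptor cells, 54 against skin and 81 against liver. The shares over the 36326 were not computed at 64-fold. At 4-fold they already rose in the same order, with 4.6%, 8.88% and 13.5%.

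Receptor cells were the next highest library for 131 of the 170 members (77.1%), skin for 26 (15.3%) and liver for 13 (7.65%). Among the 1565 other assembled genes with 1000 or more canal reads, receptor cells were the highest of the other 3 libraries in 852 (54.4%), skin in 593 (37.9%) and liver in 120 (7.67%). The shares depended on the scaling. TMM factors lower the receptor-cell values and raise those of liver. With them, receptor cells came next for 96 of the same 170 members (56.5%) and 474 of the 1565 others (30.3%). Skin then came next for 31 members (18.2%) and 571 others (36.5%), and liver for 43 (25.3%) and 520 (33.2%). With the deposited TPM, receptor cells came next for 132 members (77.6%) and 865 others (55.3%). The share with receptor cells next was larger in members than in the others under each of these 3 scalings, a difference that was not tested. The 1565 others failed the 4-fold limit against some other library, so part of these differences in shares can follow from the selection.

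**Figure D3:**
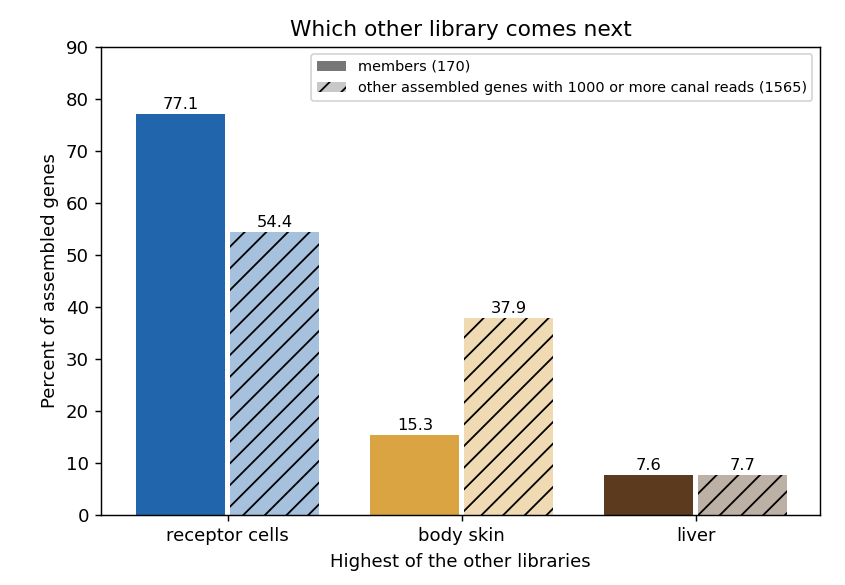
Percent of assembled genes (y axis, from 0) whose highest library outside canals is receptor cells, body skin or liver, with CPM of library totals; solid bars are the 170 members and hatched bars the 1565 other assembled genes with 1000 or more canal reads. Receptor cells come next for 77.1% of the members and 54.4% of the others, skin for 15.3% and 37.9%.

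In a second, small group, the other 3 libraries lay within 2-fold of each other with 0.5 CPM added. It held 13 members (7.65%), against 353 of the 1565 others (22.6%). With TMM scaling these were 23 members (13.5%) and 628 others (40.1%). The 13 took 4.55% of the canal reads and 0.486% to 0.517% of the reads of each other library. Only 5 of them were abundant elsewhere, and the other 8 had fewer than 1000 reads in each other library. Of these, 3 had fewer than 50 reads in each, where the added 0.5 CPM brings low values closer together, as in c90562_g6, which had no read in liver.

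After c185064_g1, the member with the most reads in this group was c71098_g1 (891 bases), with 58596 reads in canals, 14182 in receptor cells, 8801 in skin and 8764 in liver. Its canal level was 4.11-fold that of receptor cells (4.04 to 4.19), 6.34-fold that of skin (6.2 to 6.49) and 6.02-fold that of liver (5.88 to 6.15). These narrow intervals do not cover the scaling: its ratio to the next highest library, with 0.5 added, was 4.11 with library totals but 3.6 with TMM factors, 3.61 with DESeq2 size factors and 3.74 with the deposited TPM, all under the 4-fold limit. With library totals, c185064_g1 and c71098_g1 supplied 47.3% of all member reads in skin and 55.2% of those in liver. Without them the members held 0.378% of the skin reads and 0.304% of the liver reads. In receptor cells the 2 members with the most reads were c185064_g1 and c80805_g1, which supplied 26.1% of the member reads there, and 1.02% of the library remained without them.

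Of the same group, c75266_g1, c46085_g1 and c75546_g1 were short (558, 375 and 642 bases) and lay near the 4-fold limit, at rule ratios of 4.46, 4.46 and 4.34. So near the limit, membership depends on the scaling. With the deposited TPM, c46085_g1 (13982 in canals, 3690 in skin) and c75546_g1 (4458 in canals, 1138 in receptor cells) were under it. With TMM factors, 6 of the 170 members were under the 4-fold limit, all against liver, among them c75266_g1 and c75546_g1. Of the 13, 8 were under 1000 bases.

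A further 99 members fell into none of the profiles defined here and took 4.65% of the canal reads. Receptor cells came next for 68 of them, skin for 21 and liver for 10. Over the whole set, the 26 members with skin next took 0.918% of the canal reads and had a median rule ratio of 6.46. The 13 with liver next, which include 3 of the group within 2-fold, took 3.51%, of which c185064_g1 alone took 3.05%, and had a median of 10.8. Skin stood at least 4-fold above both receptor cells and liver in 2 members (1.18%), against 49 of the 1565 others (3.13%). Assembled gene c92515_g2 (937 bases) had 1604 canal reads, 13 in receptor cells, 83 in skin and 4 in liver. Assembled gene c89072_g1, which has 10 transcripts, had 1336, 41, 285 and 14 reads in the same order. In no member did liver stand 4-fold above both of the other libraries, as it did in 17 of the 1565 others (1.09%). These shares were small in members and others alike, and their differences were not tested. The member with liver next and the largest distance was c88770_g1 (3481 bases), with 29893 canal reads, 340 in receptor cells, 25 in skin and 374 in liver. In canals it was 71.9-fold above liver (64.9 to 79.9), 87.5-fold above receptor cells (78.6 to 97.6) and 1139-fold above skin (771 to 1760).

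Every member had reads outside canals. No member had 0 reads in all 3 other libraries, and each had at least 4 reads in receptor cells. Skin had 0 reads for 5 members and liver for 20, and both had 0 for 3. Fewer than 10 reads in each of skin and liver were found for 19 members, and 3 had fewer than 10 in receptor cells. The shares of other assembled genes with so few reads were not computed, so these counts only describe the members. A count of 0 allows up to 3 reads, or 0.256 CPM in skin and 0.271 CPM in liver.

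Rule ratios, the canal level over the next highest library with 0.5 CPM added to both, had a median of 8.55 (quartiles 5.37 and 18.4). A ratio of at least 16 was reached by 48 members, or 28.2%. They are 2.77% of the assembled genes with 1000 or more canal reads, and over all 36326 tested 0.391% reached this ratio. At least 32 was reached by 15 and at least 64 by 7, for which the shares over all 36326 were not computed. By the lower end of the interval, the set was led by c68108_g2 and c90562_g6.

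Assembled gene c68108_g2 (386 bases) had 11311 reads in canals, 27 in receptor cells, 11 in skin and 15 in liver. All 3 other tissues were low, and its canal level was 417-fold that of receptor cells (286 to 633), 979-fold that of skin (547 to 1962) and 679-fold that of liver (411 to 1213). Another row of the same assembly cluster (same identifier before "_g"), c68108_g1 (1088 bases), was highest in receptor cells. It had 87 reads in canals, 314 in receptor cells, 88 in skin and 51 in liver. Assembled gene c90562_g6, the shortest member at 309 bases, had 1133 reads in canals, 4 in receptor cells, 1 in skin and 0 in liver. Its canal level was 282-fold that of receptor cells (110 to 1036) and at least 340-fold that of liver. Assembled gene c53001_g1 (788 bases) had 1311 canal reads, 7 receptor-cell reads, and 0 in skin and in liver. Canals exceeded receptor cells by 186-fold (90.2 to 464), skin by at least 416-fold and liver by at least 393-fold.

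The median distance to the next highest library was larger in members with more canal reads, while that to receptor cells was similar. Canal reads and this distance both enter the rule, so this only describes the members. The median rule ratio was 6.49, 6.97, 8.55 and 10.6 in 4 groups of 42 or 43 members from the fewest to the most canal reads. Among the 43 members with the fewest canal reads (1005 to 1442), the median level over receptor cells was 10.8-fold, and among the 43 with the most (5911 to 388787) it was 11.3-fold, both with 0.5 CPM added. Over all 4 groups in the same order, the median over skin was 24.6-fold, 24.5-fold, 46.3-fold and 39.4-fold. The median over liver was 50.7-fold, 66.1-fold, 59.4-fold and 65.3-fold, so neither rose steadily.

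The same rule was applied to the other tissues. It gave 332 assembled genes for receptor cells, 356 for skin and 309 for liver, each counted in a library of similar depth. The number with 1000 or more reads differed: 1735 in canals, 2268 in receptor cells, 1942 in skin and 986 in liver. The sets were 9.8%, 14.6%, 18.3% and 31.3% of these, in the same order. The canal set was the smallest of the 4 here and the most concentrated, with 44.8% of its reads on 3 assembled genes, against 17.9% to 20.1% in the others. The share of a set that stood at least 16-fold above every other library was 28.2% for canals, 49.7% for receptor cells, 39.9% for skin and 70.2% for liver. Assembled genes with no read elsewhere numbered 0, 6, 6 and 15. In the receptor-cell set, canals were next highest for 50.3%, against the 77.1% of the canal set for which receptor cells came next. These values hold for library totals. With TMM factors the sets held 233 for canals, 253 for receptor cells, 347 for skin and 382 for liver, and the shares with the partner tissue next were 53.4% in the receptor-cell set and 67.8% in the canal set. With DESeq2 size factors the receptor-cell set, at 244, was smaller than the canal set, at 245. The 3 leading assembled genes held 40.0% to 47.8% of the reads of the canal set under the other scalings, and at most 23.8% in another set. These are descriptions of 1 library each, and the differences were not tested.

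Values near the limits of the rule were as follows. The members closest above the 4-fold limit were c91696_g3, with a rule ratio of 4.004 from 1254 canal and 307 receptor-cell reads, and c90872_g1, with 4.03 from 3782 canal and 890 skin reads. Closest below, and outside the set, were c93964_g1 at 3.96 (6818 canal and 1637 skin reads) and c93303_g2 at 3.94 (1808 canal and 452 receptor-cell reads). The members with the fewest canal reads were c72606_g1 (1005) and c94431_g1 (1011). Assembled genes c94813_g1 (988 canal reads) and c92505_g1 (986) met the 4-fold limit but not the minimum. A ratio under 5 was found for 35 members.

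Length was not used by the rule. Members had a median length of 2265.5 bases (quartiles 1166 and 3443), against 2505 (1595 and 3868) for the 1565 other assembled genes with 1000 or more canal reads. The share under 1000 bases was 20.6% (35 members) and 11.9%, respectively. The 35 short members took 18.6% of the member reads in canals but 57.2% of the member TPM, the deposited share of transcripts per 1000000 adjusted for length. On the TPM scale, which allows levels of different genes to be compared, members were 7 of the 20 highest assembled genes of the canal library. In order, c80805_g1 reached 15801 TPM, c46085_g1 (375 bases) 13982, c74498_g1 (820 bases) 12716, c85090_g1 (735 bases) 11443 and c71098_g1 7369. On this scale c46085_g1 had 3690 TPM in skin and c71098_g1 had 1968 in receptor cells, so both lay under the 4-fold limit. The long c185064_g1, second by reads, was at 3458 TPM and ranked 62. TPM of sequences not much longer than a fragment rests on a small effective length and is less certain.

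Assembled genes c74498_g1 and c85090_g1 had much the same profile. The first had 90593 reads in canals, 4927 in receptor cells, 1000 in skin and 4182 in liver, and the second had 70183, 4542, 839 and 2855. Both were lowest in skin, with canals 86.3-fold (81.1 to 91.9) and 79.7-fold (74.4 to 85.4) above it. Over receptor cells they were 18.3-fold (17.8 to 18.8) and 15.4-fold (14.9 to 15.8) higher in canals.

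Members had more than 1 transcript about as often as the other abundant assembled genes, 69 of 170 (40.6%) against 660 of 1565 (42.2%). The deposited mean length is weighted by the estimated transcript abundance in each library. A difference can reflect which transcripts were used or how the counting divided reads among them, which was not tested. Of the members with several transcripts, 64 had 50 reads or more in canals and in receptor cells. Among these, 2 were at least 1.5-fold longer in canals and 0 at least 1.5-fold shorter, or 3.12% in all. Among the 660 others compared in the same way it was 14, or 2.12%. The median absolute log2 difference in length was 0.017 in members and 0.024 in the others.

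The 2 exceptions against receptor cells were c86958_g1 and c92786_g3. The mean length of c86958_g1, which has 4 transcripts, was 1904 bases in canals, 930 in receptor cells, 1264 in skin and 1212 in liver. That of c92786_g3, with 6 transcripts, was 1413 bases in canals, 867 in receptor cells, 1048 in skin and 1354 in liver. The liver value of c86958_g1 rests on 25 reads, while the other 7 values rest on 155 reads or more. The largest shift the other way was in c90055_g1, from 1086 bases in receptor cells to 731 in canals, followed by c94431_g1, from 4808 to 3562. In the same comparison against skin, 1 of 48 members differed by at least 1.5-fold (2.08%, against 2.99% of 636 others). Against liver it was 1 of 31 (3.23%, against 4.18% of 598 others). This was c89175_g6, at 3279 bases in canals and 684 in liver, a larger change than any against receptor cells.

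The part of an identifier before "_g" names its assembly cluster, whose rows can be parts of 1 gene, alleles or close copies of it. The 170 members fell into 167 clusters, and 3 clusters held 2 members each. In cluster c76095, c76095_g1 (2303 bases) had 46844 reads in canals, 1663 in receptor cells, 245 in skin and 34 in liver, and c76095_g2 (567 bases) had 2199, 146, 22 and 3. Both followed the same order of tissues, with canals 28-fold (26.7 to 29.4) and 15-fold (12.7 to 17.8) above receptor cells.

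Rows of the same clusters outside the set peaked in different libraries. In 30 of the 167 clusters, 45 such rows had at least 100 reads in a library. They were highest in canals in 12 cases, receptor cells in 14, skin in 12 and liver in 7. The share highest in canals was 26.7%, against 21.3% of all 15849 assembled genes with that many reads. The 15849 include the members, while the 45 rows leave them out by definition, so these shares do not compare like groups. In 20 of the 45 (44.4%), from 16 clusters, canals were at least 4-fold below the highest other library, which was receptor cells in 8, skin in 8 and liver in 4. Over the 15849, members included, this share was 32.0%, and the difference was not tested.

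Cluster c81704 shows the contrast at high counts. Its member c81704_g3, with 179847 canal and 236 skin reads, is accompanied by c81704_g1 (1580 bases), with 41 reads in canals, 56 in receptor cells, 1873 in skin and 12 in liver. Cluster c90562 holds 2 members, c90562_g6 and c90562_g7 (1245 bases). The latter had 4343 reads in canals, 881 in receptor cells, 2 in skin and 0 in liver. Another row of that cluster, c90562_g5 (2441 bases), was highest in skin and lowest in canals, with 146 reads in canals, 3364 in receptor cells, 10666 in skin and 551 in liver. In cluster c89175 the member c89175_g6 had 4103 reads in canals, 360 in receptor cells, 38 in skin and 234 in liver. Its mean length was 3279 bases in canals but 613 in skin and 684 in liver. With the deposited TPM it was at 114.66 in canals and 54.17 in liver, under the 4-fold limit. Row c89175_g4 of this cluster had 3024 reads in liver and 36 in canals. Row c89175_g9 had 821 reads in canals, 5 in receptor cells and 0 in skin and liver, below the read minimum of the set. The clusters in this paragraph were chosen after their values were seen.

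Other clusters joined a member to a row shared with receptor cells. Member c91361_g1 (861 bases) had 11658 canal reads against 372 receptor-cell reads, a 31.2-fold difference in level (28.1 to 34.7). Row c91361_g2 (2611 bases) had 22776 canal reads and 21034 receptor-cell reads, with 87 in skin and 22 in liver. Reads shared between such rows are divided by the authors' counting, and 7 members had a canal count that was off a whole number by more than 0.001, against 25 of the 1565 others. The 2 members farthest from a whole number were c91172_g1 (1090.58) and c86256_g1 (1779.71).

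**Figure D4:**
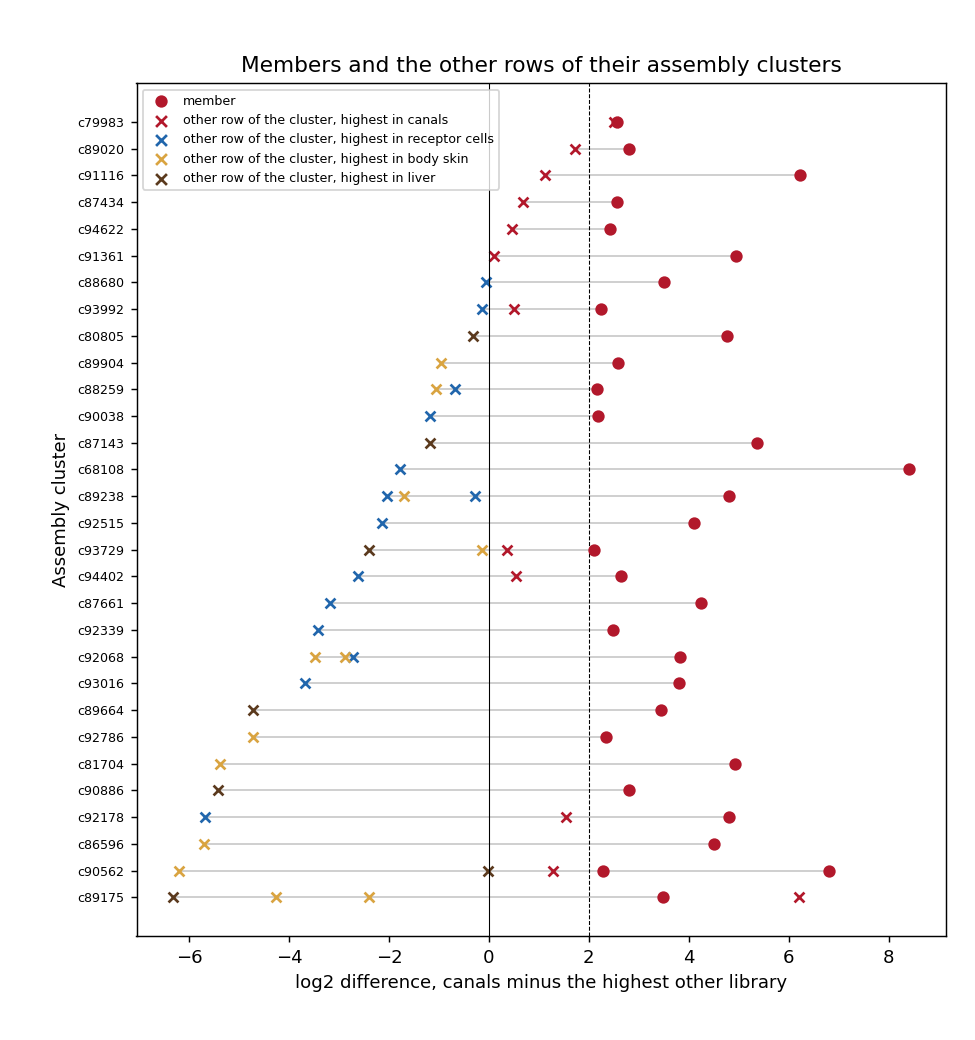
The 30 assembly clusters that hold a member and another row with at least 100 reads in a library, 1 line per cluster; circles are members and crosses the other rows, coloured by the library in which each is highest. The x axis is the log2 difference between canals and the highest other library on the log2(CPM + 0.5) scale; members lie right of the dashed 4-fold line by the rule, and 20 crosses lie at or below -2, where canals are 4-fold lower.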

How the data were processed

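The authors' expected counts, estimated reads per assembled gene and not normalized per the file headers, come from RSEM (version 1.1.17 per the submitters' processing notes). RNA was kept in RNAlater, extracted with Trizol and made into stranded, poly(A)-selected libraries, per the labels' protocols. For the assembler, aligner and filters, the sources used here give nothing. The deposited TPM values served as an alternative and for levels between genes, and the deposited FPKM values were not used. Length columns (other values, in bases) are means over transcripts as deposited.

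Counts were rounded, divided by library totals and multiplied to CPM. Folds are ratios of CPM with exact 95% intervals (Clopper-Pearson on both counts), and 0 reads were taken as up to 3. Rule ratios have 0.5 CPM added. Intervals cover counting error only, and PCR copies are not independent molecules. TMM factors (edgeR 4.0.16) were 1.01 for canals, 1.48 for receptor cells, 1.11 for skin and 0.604 for liver; DESeq2 1.42.0 gave other size factors (R 4.3.3, Python 3.11.15). The rule, and the intervals for canals against skin, were run on simulated counts that held counting error only. Such counts cannot show how either fares with differences between animals or with PCR copies.

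The members and comparisons were chosen with earlier results of these data known. Named members are those with the most reads per library, the highest lower interval end, the values nearest the rule's limits, the extremes of length and of length change, 1 cluster with 2 members, and the counts farthest from whole numbers. All others named were chosen after their values were seen. No sequence of a member was used here.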

Additional observations from a re-analysis of the deposited data

How the results depend on the processing

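No paired analysis was possible because there are no replicates, and none could be left out. The set numbered 233 with TMM factors, 245 with DESeq2 size factors and 156 with the deposited TPM, and shared 164, 164 and 154 of the 170 members, respectively. The scalings moved the median difference of all assembled genes between canals and receptor cells from -0.50 to -0.11, -0.03 and -0.66 on the log2 scale. The share of canal reads became 18.8%, 19.2% and 16.04% under these 3, 17.04% with a pseudocount of 2, 16.9% with the lower interval end at 4 or more, and 16.8% with sums per assembly cluster. As sums, 150 of the 167 clusters with members passed. A minimum of 500 canal reads gave 281 members, 17.8% of the canal reads, 74 members at 16-fold or more, 1 with no read elsewhere and 214 with receptor cells next. A minimum of 2000 gave 92, 16.2%, 24 and 75, with 0 lacking reads elsewhere. These follow from the minimum itself. Of choices made after seeing the data, leaving receptor cells out of the rule gave 371 members, leaving out skin 200, leaving out liver 185, and totals without 50 dominant assembled genes 175. Lengths differing by 1.2-fold between canals and receptor cells were found for 6 members, in place of 2 at 1.5-fold. Of 52 values under these alternatives, 35 stayed within 1.5 times the reported count or within the interval of the reported share. The log2 differences of the 17 members named by rule kept their direction in all 85 cases, as the choice of members makes likely, and 10 fell under 4-fold. Of the 85 values, 38 lay outside the counting interval of the member, and 18 moved by over 1.5-fold. At this depth a count of 0 cannot be told from up to 3 reads.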
